A study of Mus musculus with 12 samples.

Results

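Proteins and peptides that skeletal muscle makes and releases were followed across 3 tissues of mice given corticosterone (CORT, the main glucocorticoid of rodents). The set comprised 9 genes chosen by name: *Fndc5*, *Metrnl*, *Il15*, *Apln*, *Ostn*, *Gdf15*, *Bdnf*, *Sparc* and *Dcn*. All 9 had an entry among the 22273 genes listed for the gastrocnemius and the 22252 listed for the liver and for gonadal white adipose tissue (WAT). The mice were male C57BL/6J animals in which the glucocorticoid receptor gene, *Nr3c1*, was floxed (GRf/f) or was in addition cut in myofibres by Cre under the skeletal actin promoter (GRmKO), so that the other cell types of muscle, and the liver and fat, kept the intact gene. From 8 weeks of age, and for 4 weeks, they drank water holding 1% ethanol without CORT (vehicle) or with CORT at 100 µg/mL. Each of the 12 groups (3 tissues, GRf/f or GRmKO, vehicle or CORT) was 1 library made from the pooled RNA of 3 mice. There were no replicates, so no test between groups was possible, and a difference compares pools rather than conditions.

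Factors that muscle releases act on the muscle itself, on nearby vessels and nerves, and on distant organs. Some are small peptides cut from a precursor and read by a receptor on the target cell, such as apelin (*Apln*) and its receptor, or osteocrin, also called musclin (*Ostn*), which binds the natriuretic peptide clearance receptor. Others, such as *Sparc* and decorin (*Dcn*), are proteins of the extracellular matrix that fibroblasts also make in large amounts, and none of the 9 genes is transcribed in muscle alone. Glucocorticoids act through the receptor that *Nr3c1* encodes, a transcription factor that binds DNA as a dimer or alters transcription through other factors.

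Libraries held 19394572 to 20940659 expected counts, and levels are given as counts-per-million (CPM) of that total. A count of 0 allows a level of up to 0.143 to 0.155 CPM (3 counts), and intervals in the text are 95% intervals of counting error only. A gene was taken as measured in a tissue when its mean over the 4 libraries was at least 1 CPM. A change is log2 of the ratio of 2 CPM values after 0.5 was added to each, with a difference noted when it passed 2-fold (an absolute log2 of 1). The interval beside it belongs to the ratio without the added 0.5, so for a gene with few counts it can lie further from 0 than the change. In gastrocnemius *Nr3c1* stood at 113 CPM (GRf/f vehicle), 90.4 (GRf/f CORT), 46.4 (GRmKO vehicle) and 35.5 (GRmKO CORT), lower in both GRmKO libraries. Markers of the labelled tissue were present in every library, with all 8 myofibre markers above 1 CPM in gastrocnemius, all 8 hepatocyte markers in liver and all 7 adipocyte markers in WAT. The 8 hepatocyte markers summed to 6.12 and 9.03 CPM in the GRf/f gastrocnemius libraries (vehicle, then CORT) and to 84.7 and 278 CPM in the GRmKO ones. Of other cell types, the 5 Schwann cell markers summed to 214 to 403 CPM, the 7 adipocyte markers to 261 to 645 CPM and the 4 satellite cell markers to 26.7 to 36.2 CPM in gastrocnemius. In WAT the 5 mesothelial markers summed to 262 to 390 CPM and the 5 epididymis markers to 1.10 CPM at most. In liver the 8 myofibre markers summed to 7.16 CPM in GRmKO CORT and to 0.0484 to 1.00 CPM in the other libraries. The 5 mesothelial markers there summed to 8.15 CPM in GRmKO CORT and to 2.33 to 5.83 CPM in the others. Their part in the liver results was not tested. No member is a defining hepatocyte gene, and the part of hepatocyte RNA in the gastrocnemius results was not tested.

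By the 1 CPM rule 7 of the 9 genes were measured in gastrocnemius, all but *Gdf15* and *Bdnf*. In liver 5 were measured (*Metrnl*, *Gdf15*, *Bdnf*, *Sparc* and *Dcn*), and in WAT 7, all but *Ostn* and *Bdnf*. The genes nearest the limit were *Il15* in WAT, inside it at a mean of 1.10 CPM, and *Bdnf* in WAT, outside it at 0.648 CPM. *Apln* in gastrocnemius and *Fndc5* in WAT reached 1 CPM only in the 2 vehicle libraries and *Gdf15* in WAT only in the 2 CORT libraries, and a gene that passes through its higher group alone is bound to differ between groups. Over the 76 values that the measured members and the 4 comparisons of each tissue gave, 18 passed 2-fold, 8 of 28 in gastrocnemius, 4 of 20 in liver and 6 of 28 in WAT. NOISeq, which weighs a change against simulated counting noise, called 8 of these 18, none of them a change of *Apln*, *Il15*, *Fndc5* or *Bdnf*.

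**Figure D1:**
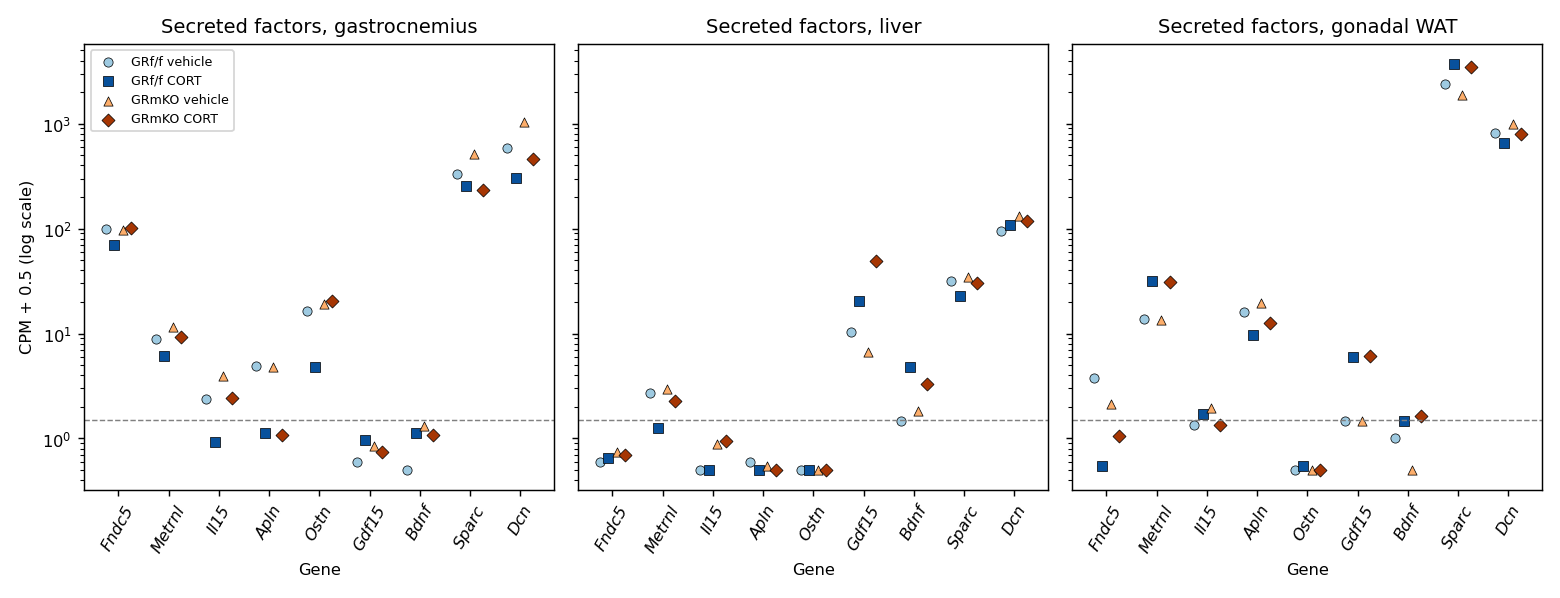
Level of each of the 9 genes in each of the 12 libraries, with 1 panel per tissue; the vertical log axis is CPM plus 0.5 and the dashed line marks 1 CPM. *Fndc5* and *Ostn* stand highest in gastrocnemius, *Gdf15* in liver, and *Sparc* and *Apln* in WAT.

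The order of levels differed between the tissues. Per base of the retained transcript, scaled to the same total in each library, the vehicle-treated GRf/f gastrocnemius held *Dcn* at 509, *Sparc* at 240, *Fndc5* at 54.3, *Ostn* at 16.8 and *Metrnl* at 9.09. *Apln* at 2.12 (1.72 to 2.62) and *Il15* at 1.5 (1.08 to 2.05) came last among those measured, and their counting intervals overlapped. The corresponding WAT library was led by *Sparc* at 1863, then *Dcn* at 762, *Metrnl* at 15.4 and *Apln* at 8.08, and the liver library by *Dcn* at 72.8, *Sparc* at 20.2 and *Gdf15* at 9.66. *Sparc* and *Dcn* together made 83.8% to 92.0% of the summed CPM of the 9 genes in gastrocnemius and 98.8% to 98.9% in WAT.

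Between tissues, where the same transcript was retained for each gene, *Fndc5* averaged 91.3 CPM in gastrocnemius against 1.38 in WAT and 0.169 in liver. *Ostn* averaged 14.6 CPM in gastrocnemius, had no count in any liver library and 1 count in a single WAT library. For neither gene did the range over the 4 gastrocnemius libraries overlap that of another tissue. *Gdf15*, a stress-responsive hormone of the TGF-β superfamily, ran the other way, with means of 21.0 CPM in liver, 3.26 in WAT and 0.290 in gastrocnemius, and ranges that did not overlap between any pair of tissues. *Apln* (13.9 CPM in WAT, 2.47 in gastrocnemius) and *Metrnl* (22.1 and 8.46 CPM) were higher in fat than in muscle.

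To examine how CORT altered the 9 genes in muscle, CORT was first compared with vehicle in gastrocnemius of GRf/f mice. All 7 measured genes were lower under CORT, and 3 of them, *Apln*, *Ostn* and *Il15*, passed 2-fold. Among all 12190 genes tested 10.1% passed 2-fold in either direction. The median change of the 7 genes was -0.95 against -0.09 over all genes tested. In GRmKO mice 3 of 7 were lower by more than 2-fold, *Apln*, *Dcn* and *Sparc*, where 8.22% of all genes passed, and the median was -0.68 against -0.09. The genotypes thus shared *Apln* among their calls and differed in the others. *Apln* reached 1 CPM only in the vehicle libraries, so its calls cannot be set against these shares.

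**Figure D2:**
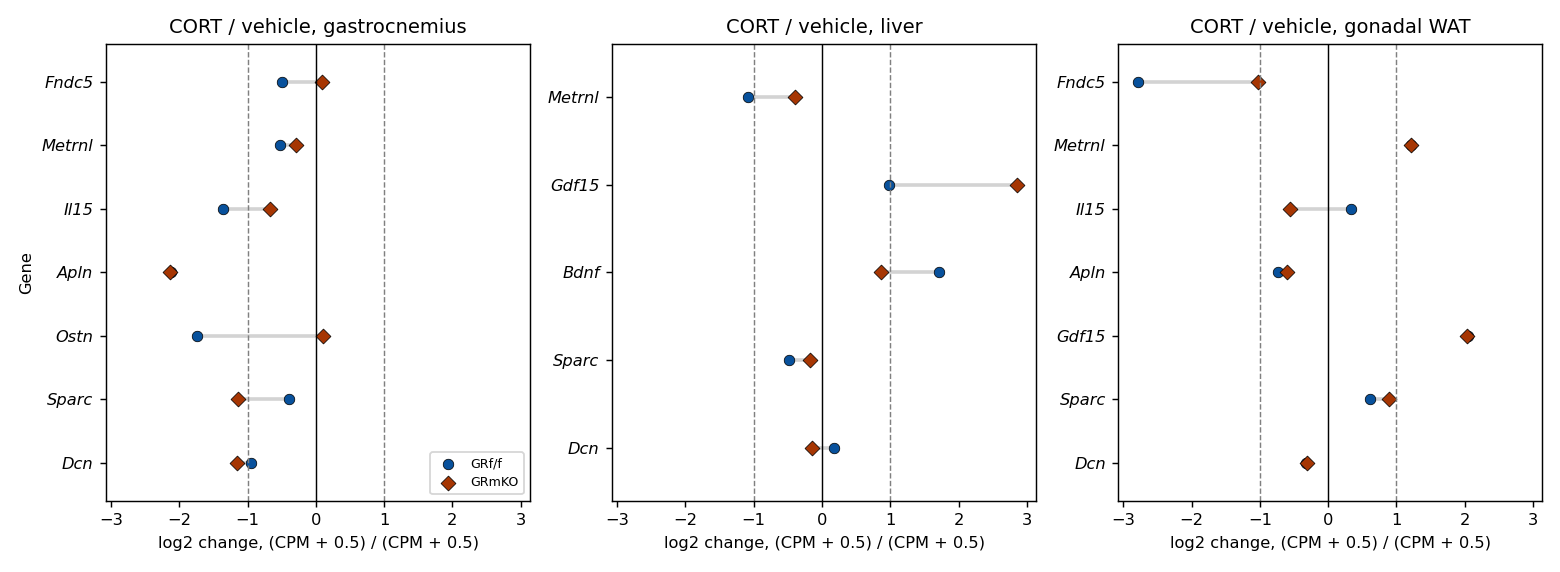
Change with CORT of the measured members in GRf/f (circles) and GRmKO mice (diamonds), with 1 panel per tissue; the horizontal axis is log2 of the ratio of CPM plus 0.5, dashed lines mark 2-fold, and each point compares 2 libraries. The points of *Ostn* in gastrocnemius (-1.75 and 0.10) and *Gdf15* in liver (0.98 and 2.86) lie far apart, and those of *Apln* in gastrocnemius and of *Metrnl* and *Gdf15* in WAT almost coincide.

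*Ostn* (chr16:27307489-27351212, plus strand, 5 exons) encodes a peptide hormone that slows the clearance of natriuretic peptides. It was read at 15.7 CPM in GRf/f vehicle gastrocnemius, 4.33 in GRf/f CORT, 18.5 in GRmKO vehicle and 19.9 in GRmKO CORT, from 312, 84, 371 and 404 counts. The GRf/f CORT library alone was low, and the other 3 lay within 15.7 to 19.9 CPM. CORT changed it by -1.75 (-2.23 to -1.51) in GRf/f and by 0.10 (-0.10 to 0.31) in GRmKO, a difference between the genotypes of 1.85 (1.56 to 2.36), the largest among the 7 genes measured in this tissue. Each comparison uses its own vehicle pool, and under CORT the GRmKO library exceeded the GRf/f one by 2.07 (1.85 to 2.55).

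Its clearance receptor *Npr3*, which takes up natriuretic peptides and binds osteocrin, moved the opposite way in muscle of GRf/f mice. *Npr3* was at 5.13 CPM in GRf/f vehicle, 46.3 in GRf/f CORT, 7.55 in GRmKO vehicle and 14.6 in GRmKO CORT. The change was 3.05 in GRf/f and 0.91 in GRmKO, so that the library with the least *Ostn* held the most *Npr3*. The 7 adipocyte markers summed to 261, 645, 360 and 505 CPM in the same order of libraries. They ranked the libraries as *Npr3* did, and the part of adipocyte RNA in its level was not tested.

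The genes whose pattern over the 4 gastrocnemius libraries was nearest to that of *Ostn*, by Euclidean distance of centred log2 values among 9198 genes, were *Irgm2* (0.16), *Fzd9* (0.27) and *Ky* (0.28). *Ky*, a gene needed for muscle maintenance, stood at 305, 94.3, 300.5 and 323 CPM in the order GRf/f vehicle, GRf/f CORT, GRmKO vehicle, GRmKO CORT. *Fzd9*, a Wnt receptor, stood at 49.7, 13.9, 49.5 and 69.3 CPM. All 3 genes shared the low GRf/f CORT library, and with 4 points such likeness is a description only.

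*Apln* (chrX:48025146-48034853, minus strand, 3 exons) encodes apelin, a peptide that acts on vessels, heart and muscle. In gastrocnemius it was at 4.37 CPM in GRf/f vehicle, 0.617 in GRf/f CORT, 4.30 in GRmKO vehicle and 0.590 in GRmKO CORT. Both CORT libraries, with 12 counts each, were low, and the vehicle libraries, with 87 and 86 counts, were level. The change was -2.13 (-3.83 to -1.95) in GRf/f and -2.14 (-3.87 to -1.98) in GRmKO, and the difference between them was -0.01 with a wide interval of -1.27 to 1.19.

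The apelin receptor *Aplnr*, found mainly on endothelial cells, was lower with its ligand: it was at 16.8 CPM under vehicle and 2.31 under CORT in GRf/f (-2.62) and at 18.6 and 2.07 in GRmKO (-2.90). The 7 endothelial markers, all above 1 CPM, summed to 369 and 314 CPM in GRf/f (vehicle, then CORT) and to 372 and 269 in GRmKO. In bulk tissue fewer cells of a type and less RNA per cell cannot be told apart, here or in the results that follow. The genes nearest to *Apln* in pattern were *Podn* (distance 0.13), *C1qtnf1* (0.14) and *Ssc5d* (0.27). *Podn*, a leucine-rich proteoglycan, was read at 19.6, 4.28, 21.7 and 4.42 CPM in the same order of libraries.

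*Il15* (chr8:82331632-82403222, minus strand) encodes a cytokine that sustains natural killer and memory T cells, and the deposited entry rests on 1 of its 4 protein-coding transcripts. Gastrocnemius levels were 1.88 CPM in GRf/f vehicle, 0.428 in GRf/f CORT, 3.42 in GRmKO vehicle and 1.94 in GRmKO CORT, from 37, 8, 69 and 40 counts. Both CORT libraries lay under the vehicle library of their genotype, and the GRmKO CORT library was level with GRf/f vehicle. The change with CORT was -1.36 (-3.49 to -1.05) in GRf/f and -0.68 (-1.41 to -0.22) in GRmKO. Its nearest genes in pattern were *Lipa* (0.18), *Pamr1* (0.19) and *Ncs1* (0.22). Of the receptor chains, *Il2rg*, shared with other cytokines, was at 3.95 and 0.876 CPM in GRf/f (-1.69) and at 3.84 and 1.57 in GRmKO (-1.07).

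*Fndc5* (chr4:129136999-129144593, plus strand, 6 exons) encodes the membrane precursor of irisin. Gastrocnemius held 98.6 CPM in GRf/f vehicle, 69.5 in GRf/f CORT, 95.7 in GRmKO vehicle and 101 in GRmKO CORT. As with *Ostn*, the GRf/f CORT library was the low one. The drop was smaller: -0.50 (-0.60 to -0.40) in GRf/f against 0.08 (-0.01 to 0.17) in GRmKO, which left the genotypes 0.58 (0.45 to 0.72) apart without either passing 2-fold. The coactivator *Ppargc1a*, which was outside the naming rule and was chosen after its values were seen because it is known to drive *Fndc5*, was at 64.6, 40.2, 34.6 and 34.5 CPM in the same libraries.

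*Metrnl* (chr11:121701544-121716306, plus strand), encoding meteorin-like, a factor linked to fat browning and immune cells, changed little in muscle. It was at 8.37, 5.67, 10.97 and 8.84 CPM (GRf/f vehicle, GRf/f CORT, GRmKO vehicle, GRmKO CORT), with changes of -0.52 (-0.92 to -0.21) and -0.30 (-0.60 to -0.02). *Gdf15* stayed under 0.5 CPM in every gastrocnemius library (2 to 9 counts). *Bdnf*, a neurotrophin also described in muscle, stayed under 1 CPM. It had 0 counts in GRf/f vehicle, 12 in GRf/f CORT, 16 in GRmKO vehicle and 12 in GRmKO CORT. Its level was 4.08-fold the limit of 3 counts of GRf/f vehicle in GRf/f CORT and 5.30-fold in GRmKO vehicle. These folds leave out the counting error of the higher library. With it the intervals of the 2 ratios began at log2 1.51 and 1.93. Both genes count as not measured in this tissue by the 1 CPM rule.

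*Sparc* and *Dcn* gave the highest levels of the set in muscle. *Sparc* (chr11:55394500-55423183, minus strand), a collagen-binding glycoprotein, was at 334 CPM in GRf/f vehicle, 253 in GRf/f CORT, 510 in GRmKO vehicle and 231 in GRmKO CORT. *Dcn* (chr10:97479609-97518143, plus strand), a small leucine-rich proteoglycan that coats collagen fibrils and binds myostatin and TGF-β, was at 588, 304, 1032 and 462 CPM in that order. For both genes the GRmKO vehicle library was the highest and the CORT libraries the lower ones.

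With CORT, *Dcn* changed by -0.95 (-0.998 to -0.91) in GRf/f and -1.16 (-1.20 to -1.12) in GRmKO, on either side of the 2-fold limit. *Sparc* changed by -0.40 (-0.45 to -0.35) and -1.14 (-1.20 to -1.10), the latter being -0.99, short of 2-fold, with TMM scaling of the libraries. The larger drop of *Sparc* in GRmKO began from a higher vehicle level, and under CORT the 2 genotypes were close (-0.13, GRmKO against GRf/f). The 7 fibroblast markers, all above 1 CPM, summed to 286, 171, 435 and 218 CPM in the same order, and the 6 macrophage markers to 110, 115, 390 and 148. Both sums were highest in the GRmKO vehicle library, as *Sparc* and *Dcn* were, and the part of these cells in the result was not tested.

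The matrix genes that fibroblasts express with *Sparc* and *Dcn* were lower under CORT as well. Of 13 such genes 10 were lower by more than 2-fold in GRf/f (median -1.44) and 11 in GRmKO (median -1.65), and none was higher by 2-fold. *Col3a1*, a fibrillar collagen, went from 381 to 63.0 CPM in GRf/f and from 521.7 to 82.5 in GRmKO (-2.59 and -2.65). *Col1a1* changed by -2.40 and -2.23, *Col1a2* by -2.12 and -2.10, and fibronectin (*Fn1*) by -1.67 and -2.05. *Sparc* and *Dcn* changed less than these 3 collagens in both genotypes.

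Among the 8 other small leucine-rich proteoglycans the genotypes gave medians of -0.27 in GRf/f and -1.01 in GRmKO, with 2 and 4 lower by 2-fold. *Kera* was lower in both (-2.78 and -2.74), as was *Lum* (-1.25 and -1.76). *Omd* was higher in GRf/f (1.40) and changed by 0.26 in GRmKO, and *Fmod* changed by -0.50 and -1.33. The members of the family thus did not move alike, and the GRmKO changes were below 0 for all but *Omd* among those named.

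**Figure D3:**
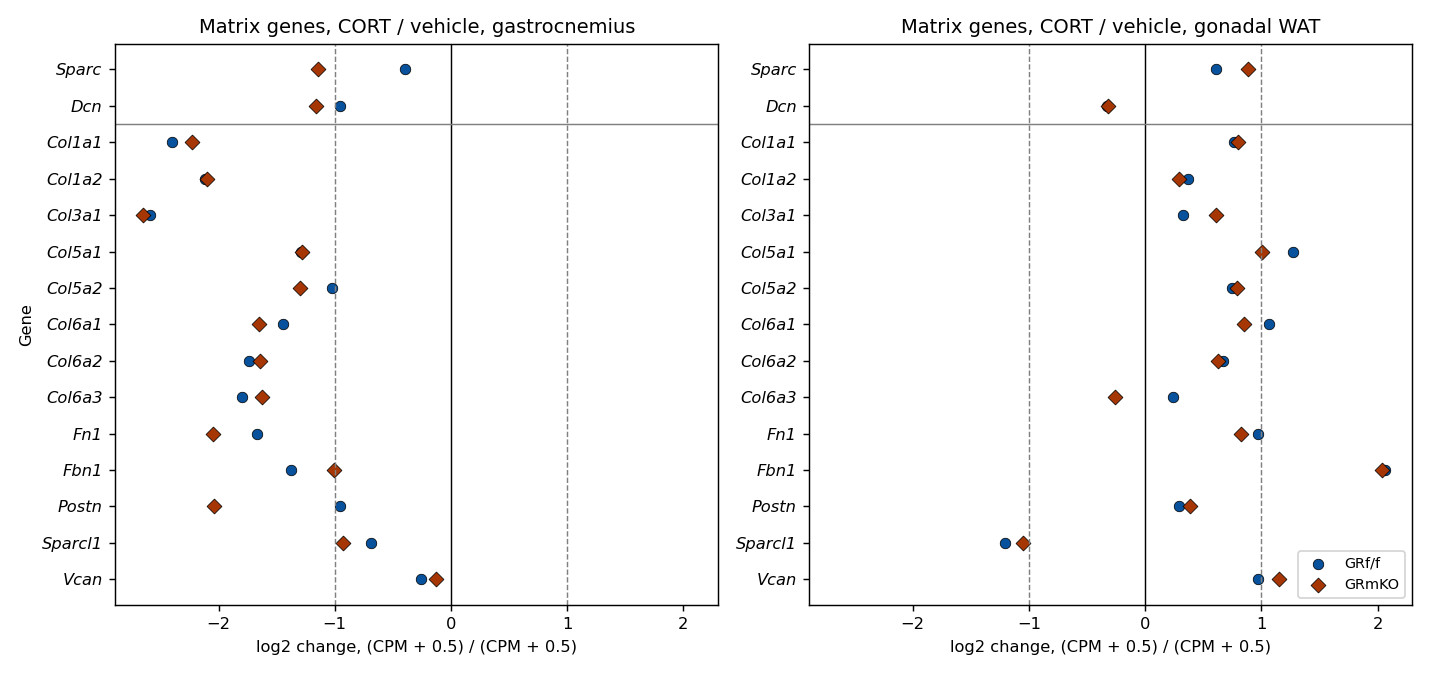
Change with CORT of *Sparc* and *Dcn* (above the line) and of 13 other matrix genes in gastrocnemius and gonadal WAT, with GRf/f as circles and GRmKO as diamonds; the horizontal axis is log2 of the ratio of CPM plus 0.5 and dashed lines mark 2-fold. All 15 genes lie below 0 in gastrocnemius, and most lie above 0 in WAT, where *Sparc* is among them and *Dcn* and *Sparcl1* lie below 0 in both genotypes.

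The start of *Sparc* is shown because the 6-letter half-site of the receptor, AGAACA, lay upstream of it, as upstream of 3 of 7 *Bdnf* starts and of no other start matched. RefSeq windows of 250 bases before the start (build GRCm38.p6) were matched for 6 of the 9 genes, namely *Fndc5*, *Metrnl*, *Apln*, *Gdf15*, *Bdnf* and *Sparc*. Those of *Apln*, *Metrnl* and *Gdf15* are shown because their changes with CORT were alike in both genotypes in muscle or fat. Sequences read from 5′ to 3′ toward the gene, and capitals mark the half-site on either strand:
Sparc, chr11:55420081-55420330, minus strand: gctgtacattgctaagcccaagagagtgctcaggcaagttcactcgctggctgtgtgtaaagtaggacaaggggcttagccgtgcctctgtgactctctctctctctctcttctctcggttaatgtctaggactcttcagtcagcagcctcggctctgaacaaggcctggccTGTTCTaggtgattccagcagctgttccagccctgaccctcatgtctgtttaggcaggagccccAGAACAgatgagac
Apln, chrX:48034854-48035103, minus strand: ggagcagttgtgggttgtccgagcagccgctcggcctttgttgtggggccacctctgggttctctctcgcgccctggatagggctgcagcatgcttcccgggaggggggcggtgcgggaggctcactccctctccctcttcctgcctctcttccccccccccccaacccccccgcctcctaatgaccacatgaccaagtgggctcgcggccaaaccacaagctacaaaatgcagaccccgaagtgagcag
Metrnl, chr11:121702177-121702426, plus strand: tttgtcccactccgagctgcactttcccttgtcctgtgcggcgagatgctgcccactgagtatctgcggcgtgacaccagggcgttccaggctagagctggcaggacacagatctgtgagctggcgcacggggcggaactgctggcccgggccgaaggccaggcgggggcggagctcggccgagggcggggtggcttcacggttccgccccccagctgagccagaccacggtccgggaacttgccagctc
Gdf15, chr8:70632457-70632706, minus strand: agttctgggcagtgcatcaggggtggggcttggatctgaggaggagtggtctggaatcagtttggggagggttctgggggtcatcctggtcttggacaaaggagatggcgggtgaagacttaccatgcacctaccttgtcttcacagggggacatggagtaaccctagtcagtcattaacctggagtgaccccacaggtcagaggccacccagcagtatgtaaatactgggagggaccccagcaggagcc
In the *Sparc* window the half-site began 14 bases before the start on the strand of the gene and spanned 78 to 73 bases before it on the other strand, and this start lies 182 bases from that of the retained transcript. Over 32851 windows of this length 16.1% held AGAACA on at least 1 strand, 0.00913% held the inverted pair of half-sites with a gap of 3 bases (which overlaps the half-site), and 3.44% held the amino acid response element TGATGNAAN. Neither of the last 2 was in the windows shown. A match is a description of letters, and its absence says nothing of the receptor.

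To examine the genotypes directly, GRmKO was compared with GRf/f gastrocnemius. Under vehicle 0 of 7 genes passed 2-fold, where 9.7% of all genes did. The changes ran from -0.04 for *Fndc5* and -0.02 for *Apln* to 0.61 (0.57 to 0.66) for *Sparc*, 0.72 (0.29 to 1.5) for *Il15* and 0.81 (0.78 to 0.84) for *Dcn*. Under CORT 2 of 7, *Ostn* (2.07) and *Il15* at 1.40 (1.14 to 3.56), were higher in GRmKO by more than 2-fold, where 11.5% of all genes passed. *Fndc5* differed by 0.54, *Metrnl* by 0.60, *Dcn* by 0.60 and *Apln* by -0.04 under CORT. Apart from *Apln* and *Sparc*, the genes were thus higher in GRmKO under CORT, with a median of 0.60 against 0.04 over all genes tested. Under vehicle 5 of 7 were higher in GRmKO as well, with a median of 0.37 against 0.08.

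**Figure D4:**
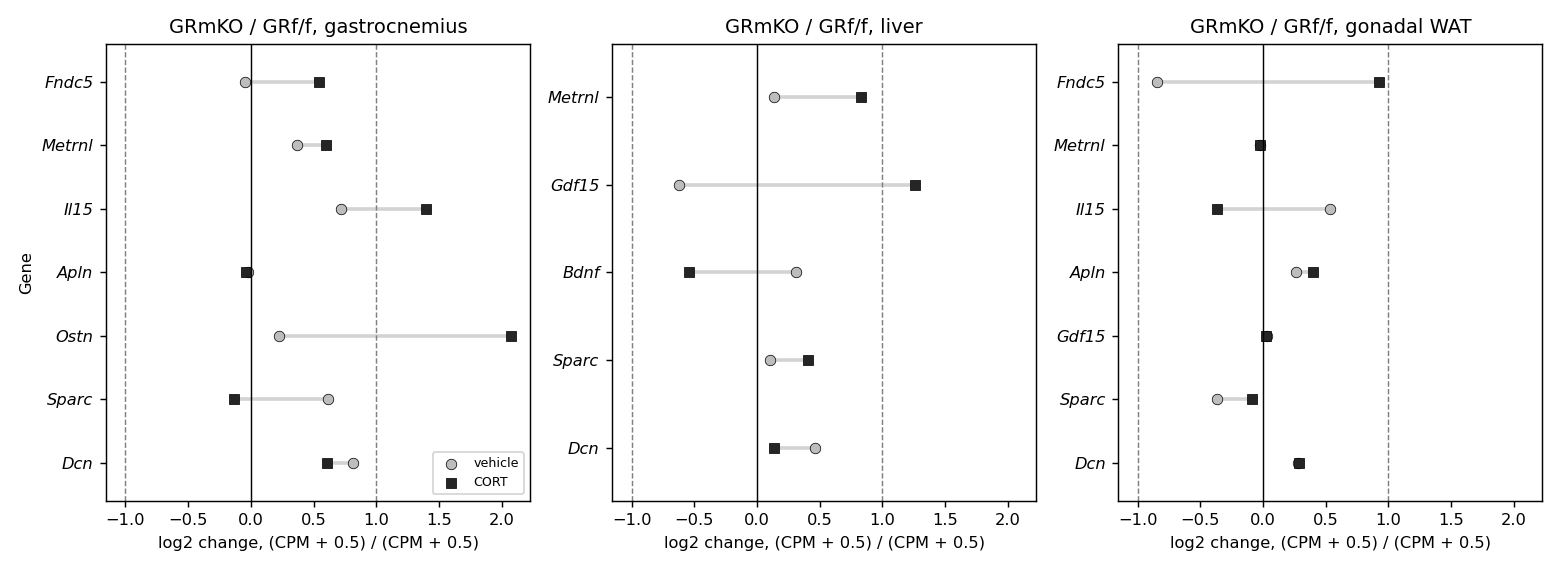
GRmKO against GRf/f under vehicle (grey circles) and under CORT (black squares) for the measured members, with 1 panel per tissue; the horizontal axis is log2 of the ratio of CPM plus 0.5 and dashed lines mark 2-fold. Only *Ostn* and *Il15* in gastrocnemius and *Gdf15* in liver lie beyond 2-fold, all under CORT.

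Other genes of the same biology in gastrocnemius were summarised from lists chosen for this purpose. Of 29 further factors that muscle is known to release, 21 were measured. Under CORT 2 were higher and 5 lower by 2-fold in GRf/f (median -0.44), and 1 higher and 5 lower in GRmKO (median -0.42). *Angptl4*, an inhibitor of lipoprotein lipase, was higher in both genotypes (2.80 and 2.95), and the antiangiogenic *Serpinf1* (-1.34 and -1.53) and *Fstl1* (-1.27 and -1.34) were lower in both. Of the 7 adipocyte markers 5 were higher and 1 lower by 2-fold with CORT in GRf/f, and 4 and 0 in GRmKO. Their part in the *Angptl4* change was not tested. *Metrn*, the homologue of *Metrnl*, changed by -1.60 in GRf/f and -0.33 in GRmKO.

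Of 12 receptors of the members 10 were measured in gastrocnemius, with 1 higher and 3 lower by 2-fold in GRf/f and 0 and 3 in GRmKO. *Ret*, the signalling chain used by the GDF15 receptor, was lower in both (-1.58 and -1.56), while *Gfral*, the receptor itself, had 0 counts in all 12 libraries. Of 6 proteases that mature or degrade secreted precursors, *Pcsk6* changed by -2.06 and -1.47 and *Mme* by 1.05 and -0.45. All 13 genes of the integrated stress response were measured, with 2 higher and 1 lower by 2-fold in GRf/f and 2 and 0 in GRmKO. *Atf3* was higher in both (3.07 and 2.20), in the tissue where *Gdf15*, a target of this pathway, was not measured. *Psat1* changed by 2.01 and -0.09 and *Chac1* by -1.46 and 1.62. None of 5 genes of the PGC-1 group passed 2-fold with CORT in either genotype. These were the coactivators *Ppargc1a* and *Ppargc1b* and the nuclear receptors *Esrra*, *Esrrb* and *Esrrg*.

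In liver the largest change among the 9 genes was that of *Gdf15* (chr8:70629393-70632456, minus strand, 3 exons). It was at 9.85 CPM in GRf/f vehicle, 19.9 in GRf/f CORT, 6.22 in GRmKO vehicle and 48.2 in GRmKO CORT, from 206, 407, 129 and 1001 counts. Both CORT libraries were higher, the GRmKO one most. The change was 0.98 (0.77 to 1.26) in GRf/f and 2.86 (2.68 to 3.23) in GRmKO, a difference of 1.88 (1.58 to 2.30) between genotypes in neither of which the liver was the target of Cre. Liver *Nr3c1* itself was at 58.0, 45.2, 60.8 and 49.6 CPM in the same order. The 2 vehicle libraries differed by -0.62 (-0.99 to -0.33, GRmKO against GRf/f) and the CORT libraries by 1.26 (1.11 to 1.45). In the sample records the 2 GRf/f liver libraries are numbered apart from the GRmKO liver ones. Whether they were also processed apart is not stated, and in liver such a difference could not be told apart from genotype.

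*Gdf15* is a target of the integrated stress response, and genes of that pathway did not move as one in liver. Of 13 genes 10 were measured, with 2 higher and 2 lower by 2-fold in GRf/f (median 0.07) and 3 higher and 1 lower in GRmKO (median 0.22). The transcription factor *Atf3* had 0 counts in both GRf/f libraries and was at 0.921 and 5.77 CPM in GRmKO (vehicle, then CORT), highest where *Gdf15* was highest. *Ddit3*, another factor of the pathway, changed by 1.82 in GRf/f and -0.33 in GRmKO. The hepatic hormone *Fgf21* was at 0.0955 and 2.84 CPM in GRf/f (2.49) and at 0.193 and 8.93 in GRmKO (3.77). *Gdf15* and *Fgf21* were thus both highest in the GRmKO CORT library and next in the GRf/f CORT one. The other secreted factor named in liver, *Inhba*, was instead highest in GRf/f CORT. It was at 2.22 and 27.4 CPM in GRf/f (3.36) and at 3.45 and 9.59 in GRmKO (1.35).

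In liver of GRf/f mice 2 of 5 measured genes passed 2-fold with CORT, *Bdnf* higher and *Metrnl* lower, where 13.8% of all 10943 genes tested passed. *Bdnf* (chr2:109674700-109727007, plus strand, the entry being 1 of 11 protein-coding transcripts) was at 0.956, 4.29, 1.31 and 2.78 CPM in the order GRf/f vehicle, GRf/f CORT, GRmKO vehicle, GRmKO CORT. The 2 CORT libraries were above the 2 vehicle ones, with changes of 1.72 (1.46 to 2.95) and 0.86 (0.42 to 1.81). Its receptor *Ntrk2* was at 0.430 and 4.47 CPM in GRf/f (2.42) and at 0.826 and 1.08 in GRmKO (0.26). *Sort1*, a sorting receptor for its precursor, was lower in both genotypes (-3.40 and -2.69).

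*Metrnl* in liver was at 2.20, 0.769, 2.47 and 1.75 CPM, with changes of -1.09 (-2.41 to -0.64) in GRf/f and -0.40 (-1.17 to 0.14) in GRmKO. The GRf/f CORT library held 16 counts and the others 36 to 51. The 6 macrophage markers, all above 1 CPM, summed to 129, 43.6, 102 and 65.6 CPM in the same order, lowest in the library with least *Metrnl*, and their part in it was not tested.

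In GRmKO liver 1 of 5 genes, *Gdf15*, passed 2-fold with CORT, where 7.72% of all genes did. Between genotypes 0 of 5 passed under vehicle (4.21% of all genes) and 1 of 5, *Gdf15*, under CORT (6.65%). *Sparc* was at 31.5, 22.3, 33.8 and 29.8 CPM and *Dcn* at 94.6, 107, 131 and 118. *Sparc* changed with CORT by -0.49 (-0.67 to -0.32) in GRf/f and -0.18 (-0.34 to -0.03) in GRmKO, and *Dcn* by 0.18 and -0.15. The *Sparc* change in GRf/f liver was close to that in GRf/f muscle (-0.40), and no change of either gene passed 2-fold in liver. Of 12 matrix genes measured in liver 9 were below 0 in GRf/f (median -0.30) and 6 in GRmKO (median 0.04). By 2-fold 3 were lower in GRf/f and 2 in GRmKO, and 0 were higher. *Col3a1* (-1.54 and -1.01) and *Postn* (-1.16 and -1.29) were among those lower. *Fndc5*, *Il15* and *Apln* had 0 to 9 counts in any liver library and *Ostn* none.

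In WAT the same 3 genes passed 2-fold with CORT in both genotypes, *Metrnl* and *Gdf15* higher and *Fndc5* lower. That was 3 of 7 in GRf/f, where 15.4% of all 12817 genes tested passed, and 3 of 7 in GRmKO, where 10.7% did. *Fndc5* reached 1 CPM only in the vehicle libraries and *Gdf15* only in the CORT ones, so their calls cannot be set against these shares. *Metrnl* was at 13.2 CPM in GRf/f vehicle, 31.3 in GRf/f CORT, 13.0 in GRmKO vehicle and 30.8 in GRmKO CORT. The CORT libraries were more than 2-fold above the vehicle ones, with a change of 1.22 (1.04 to 1.46) in each genotype and a difference between them of 0.00 (-0.29 to 0.30). *Metrnl* was thus higher with CORT in fat. In liver and muscle it was lower in both genotypes, past 2-fold only in GRf/f liver and within counting error in GRmKO liver.

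*Gdf15* in WAT was at 0.952, 5.51, 0.982 and 5.60 CPM, from 19, 110, 19 and 113 counts. The change was 2.05 (1.83 to 3.32) in GRf/f and 2.04 (1.83 to 3.32) in GRmKO, with a difference of -0.01 (-1.01 to 0.97). Unlike in liver, the genotypes gave nearly the same levels. The stress response genes *Atf3* (1.26 and 1.75) and *Mthfd2* (1.37 and 1.76) were higher in both, among 13 measured genes of which 3 were higher and 1 lower by 2-fold in each genotype. The 6 macrophage markers summed to 713 and 1760 CPM in GRf/f (vehicle, then CORT) and to 933 and 1701 in GRmKO, higher under CORT as *Metrnl* and *Gdf15* were, as was the chemokine *Ccl2* (2.71 and 3.16). Their part in the result was not tested.

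*Fndc5* in WAT rested on few reads: 66 counts in GRf/f vehicle, 1 in GRf/f CORT, 32 in GRmKO vehicle and 11 in GRmKO CORT (3.31, 0.0502, 1.62 and 0.544 CPM). Both CORT libraries were lower than the vehicle ones. The change was -2.79 in GRf/f, with an interval of -11.37 to -3.51 set by the single count, and -1.02 (-2.71 to -0.55) in GRmKO, where TMM scaling gave -0.94. The 8 myofibre markers summed to 48.1, 117, 201 and 104 CPM in these libraries, most of it *Acta1* (37.4, 113, 199 and 103 CPM). The other 7 summed to 10.7, 3.83, 1.94 and 0.792 CPM, with 0, 0, 2 and 3 of them at 0, and 5, 2, 1 and 1 of the 8 were at 1 CPM or more. These 7 were thus highest in the GRf/f vehicle library, as *Fndc5* was, and the part of muscle RNA in its level was not tested.

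*Apln* in WAT was at 15.6, 9.14, 18.8 and 12.2 CPM, lower with CORT by less than 2-fold (-0.74, -1.04 to -0.50, in GRf/f and -0.60, -0.86 to -0.39, in GRmKO). Its receptor *Aplnr* was lower by more, from 45.0 to 3.87 CPM in GRf/f (-3.38) and from 28.4 to 3.26 in GRmKO (-2.94). The 7 endothelial markers went from 758 to 290 CPM in GRf/f and from 677 to 403 in GRmKO, so they were lower together with *Aplnr*, and their part in its level was not tested. The pair *Apln* and *Aplnr* was therefore lower with CORT in muscle and in fat of both genotypes.

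*Sparc* in WAT was at 2414 CPM in GRf/f vehicle, 3683 in GRf/f CORT, 1875 in GRmKO vehicle and 3466 in GRmKO CORT. The CORT libraries were the higher ones, with changes of 0.61 (0.59 to 0.63) and 0.89 (0.87 to 0.90), the latter passing 2-fold at 1.01 with TMM scaling, and both opposite in direction to muscle. *Dcn* was at 820, 653, 994 and 798 CPM and was lower with CORT by -0.33 (-0.36 to -0.29) and -0.32 (-0.35 to -0.29). The pair that moved together in muscle thus parted in fat.

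Of the 13 other matrix genes 3 were higher and 1 lower by 2-fold with CORT in WAT in each genotype, with medians of 0.74 in GRf/f and 0.79 in GRmKO against -0.06 and -0.13 over all genes tested. *Fbn1*, the fibrillin of elastic microfibrils, was highest among them (2.06 and 2.04), and *Col5a1* changed by 1.28 in GRf/f and 1.00 in GRmKO. The fibroblast markers summed to 888, 1184, 959 and 1090 CPM in the order used for *Sparc*.

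*Il15* in WAT had 17 to 29 counts per library and changed by 0.34 (-0.46 to 1.49) in GRf/f and -0.56 (-1.76 to 0.11) in GRmKO, both within counting error. The receptor chain *Il2rb*, found on natural killer and T cells, was at 8.27 and 0.372 CPM in GRf/f (-3.33) and at 6.08 and 1.09 in GRmKO (-2.05). The cytokine *Lif* was at 2.66 CPM in GRf/f vehicle with no count in GRf/f CORT. The upper end of the interval of that ratio was -3.79 on the log2 scale. In GRmKO *Lif* was at 2.89 and 1.04 CPM (vehicle, then CORT), a change of -1.14.

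Between genotypes 0 of 7 genes passed 2-fold in WAT under vehicle (3.5% of all genes) and 0 of 7 under CORT (4.12%). *Metrnl* differed by -0.03 under vehicle and -0.02 under CORT, *Gdf15* by 0.03 and 0.02, and *Dcn* by 0.28 and 0.29. The widest differences were those of *Fndc5*, -0.84 (-1.69 to -0.40) under vehicle and 0.92 (0.66 to 8.87) under CORT, on the counts given above. The count of 0 under CORT depends on the added 0.5 CPM, since with 0.1 CPM added *Fndc5* differed by 2.10.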

How the data were processed

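Per the labels and the study's methods, RNA of 3 mice per group was pooled and sequenced as paired 100-base reads, giving 12 libraries with 1 per group. The deposited values are expected counts: the authors estimated counts with Salmon 1.2.1 against GENCODE protein-coding transcripts (mm10), imported them with tximport in R 3.5.0 on the lengthScaledTPM scale, and kept for each symbol the entry with the largest total, which bears the name of 1 transcript. An entry was treated as that transcript standing for its gene. How this choice moves a level is unknown, and between tissues only members with the same retained transcript, which all 9 had, were compared. Positions came from GENCODE M21 (GRCm38), in which every transcript identifier was found.

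Values were divided by the library total (19394572 to 20940659 counts). Changes used a pseudocount of 0.5 CPM and genes with a tissue mean of at least 1 CPM, and a change past 2-fold was noted. With 1 library per group there is no p-value. Exact (Clopper-Pearson) 95% intervals of ratios and Wilson intervals of levels were computed on rounded counts and cover counting error only, not the spread between mice. Intervals of differences between the 2 genotypes' changes used the large-count error of a log ratio. NOISeq for data without replicates (20% depth, 5 draws per library, variability 0.02, probability of at least 0.9), the method of the authors, was an alternative, as were TMM factors (edgeR 4.0.16 in R 4.3.3), median-of-ratios factors, a pseudocount of 0.1 CPM and no filter. Scripts ran in Python 3.11.15 (numpy 2.4.6, pandas 2.3.3, scipy 1.17.1) and were tested on simulated data. Named genes were all 9 members, up to 4 genes per list past 2-fold with CORT in gastrocnemius (2 in liver and in WAT), and the 3 genes nearest in pattern to each of the 3 members with the widest range in gastrocnemius, among genes with a mean of at least 5 CPM. The members and the 17 gene and marker lists were chosen with earlier results of these data known.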

Additional observations from a re-analysis of the deposited data

Results flagged for a closer look

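*Dcn* in liver is noted because its change with CORT went in opposite directions in the 2 genotypes, 0.18 (0.09 to 0.27) in GRf/f and -0.15 (-0.23 to -0.07) in GRmKO on the log2 scale, a difference of -0.33 (-0.45 to -0.21, counting error only). With 1 library per group the difference was not tested. The 7 fibroblast markers summed to 109 and 112 CPM in GRf/f liver (vehicle, then CORT) and to 115 and 117 in GRmKO liver. Only 3 and 4 of them reached 1 CPM in GRf/f, and 4 and 4 in GRmKO. *Dpp4* alone made 102 and 100 CPM of the GRf/f sums, which therefore mostly follow 1 gene.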

How the results depend on the processing

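No paired analysis was possible because each group had 1 library, and for the same reason no library could be left out. Of 60 counts of members past the threshold under an alternative, 50 stayed within 1.5 times the reported count and 10 did not. Of 228 log2 changes of members under an alternative, 28 lay outside the counting interval of the reported change, and 2 had another sign, both of *Metrnl* between genotypes in WAT under CORT (-0.02 as reported, 0.01 with TMM or median-of-ratios factors).

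NOISeq called 8 of the 18 changes past 2-fold and no other: *Ostn* in gastrocnemius with CORT in GRf/f (1, against 3 past 2-fold) and between genotypes under CORT (1, against 2), *Sparc* and *Dcn* with CORT in GRmKO gastrocnemius, *Gdf15* in liver with CORT in GRmKO and between genotypes under CORT, and *Metrnl* in WAT with CORT in GRf/f (1, against 3) and in GRmKO (1, against 3). In GRf/f liver it called 0, against 2. *Apln* was not called in any comparison, and the cause was not tested.

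With a pseudocount of 0.1 CPM *Bdnf* passed 2-fold in GRmKO liver with CORT (2 genes, against 1), *Metrnl* between genotypes in liver under CORT (2, against 1), *Fndc5* between genotypes in WAT under CORT (1, against 0), and *Gdf15* in GRf/f liver with CORT at 1.01, against 0.98. Without the filter on low values 1 gene, against 0, *Bdnf*, passed between genotypes under vehicle in gastrocnemius and in WAT, since it is left out by the filter.

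TMM factors moved the median of all genes by 0.14 with CORT in GRmKO gastrocnemius and by 0.12 in GRmKO WAT, and median-of-ratios factors by 0.10 in GRf/f gastrocnemius, 0.13 in GRmKO gastrocnemius and 0.12 in GRmKO WAT. With TMM *Sparc* in GRmKO gastrocnemius was at -0.99. In GRmKO WAT *Fndc5* was at -0.94 and *Sparc* at 1.01 with TMM, and at -0.94 and 1.02 with median-of-ratios factors. Depth limits *Fndc5*, *Il15* and *Gdf15* in WAT, *Il15* and *Apln* in gastrocnemius and *Metrnl* in liver most, where a library held under 20 counts (8 for *Il15* in GRf/f CORT gastrocnemius).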
